A study of Nothobranchius furzeri with 20 samples.

Results

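The genes described here stood higher in muscle of swim-tunnel fish than of unexercised fish at 9 weeks of age, and were followed into swim-tunnel fish of 27 weeks. Muscle of males of the annual turquoise killifish Nothobranchius furzeri, strain MZM-04/10p, was sequenced for RNA in 10 libraries of 27-week fish labelled swim-tunnel, 5 libraries of 9-week fish labelled swim-tunnel and 5 libraries of 9-week fish with the perturbation label none. In a swim tunnel, water flows past the fish so that it must swim to hold its place. The labels give neither the speed of the flow nor the duration of swimming. The 20 libraries include no 27-week fish with the label none, so the 27-week fish differ from unexercised 9-week fish in both age and exercise. Libraries are numbered within their group in the order of the sample codes, and nothing in the labels pairs fish across groups or says which were kept or sampled together.

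Expression was taken as counts per 1000000 counts of the library (CPM), with the library's own total over all genes. Members were chosen by these CPM values: a gene qualified if each of its 5 swim-tunnel values at 9 weeks lay above each of its 5 unexercised values, with a swim-tunnel mean of at least 5 CPM. Of 26739 genes, 251 met this. From these, 8 genes were dropped because all 10 of their 27-week values lay above all 9-week values, and 3 because they lay below. The 150 genes with the largest ratio of 9-week means were kept of the 240 that remained, and the other 90 were left out. The members were thus selected on the 9-week difference, and the 27-week values took part in the drop step, so the 9-week difference is given as a description only and supports nothing.

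Muscle is a tissue that exercise is known to remodel in vertebrates: repeated contraction changes the transcription of genes for fuel use, mitochondria, contractile proteins, blood supply and stress handling. Some of these responses fade soon after a bout and others last with training. Which of these functions the members serve is not given here, because the files pair no identifier with a gene name and 0 of 26739 identifiers were found in the RefSeq gene table of assembly NfurGRZ-RIMD1. For the same reason the tissue label was not checked against muscle markers. Members are called by their rank in the ratio of 9-week means, and only 4 by identifier.

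Library totals ran from 24333849 to 38571967 counts over the 20 libraries, which sets the precision of single values. The 27-week libraries were not alike. On the first principal component of all tested genes, libraries 1 to 5 lay between 67.6 and 81.8 and libraries 6 to 10 between -13.5 and 19.2, while the 9-week libraries lay between -56.4 and -18.1. The labels of the 10 libraries are the same. The scaling factors of the trimmed mean of M-values (TMM, which sets the typical gene equal between libraries) were 1.11 to 1.24 in 27-week libraries 1 to 5 and 0.776 to 0.983 in libraries 6 to 10, so results set on each library's own total are also given on TMM-scaled totals. Library 1 of the 9-week swim-tunnel fish stood apart on the second component, at 77.0 against -32.4 to -14.6 in the other 4.

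Most of the differences that chose the members were less than 2-fold. The members' swim-tunnel means at 9 weeks had a median of 12.04 CPM and reached 617 CPM. The ratio of the 9-week means had a median of 1.61, and 29 of the 150 members had a ratio of at least 2. The rank 1 gene, with a ratio of 10.7, stood far from the rank 2 gene with a ratio of 4.39. At the other end, the last gene inside the limit had a ratio of 1.372 and the first gene outside it 1.370, so the limit divides genes that are alike. The member nearest the CPM minimum had a swim-tunnel mean of 5.06 CPM, and the nearest separated gene under it had 4.91 CPM. For 76 members the lowest swim-tunnel value was less than 1.1 times the highest unexercised value.

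Together the members held 0.466% ± 0.0918 of all counts in 27-week swim-tunnel libraries (SD, n = 10). This mean pools libraries 1 to 5, at 0.480% to 0.622%, with libraries 6 to 10, at 0.348% to 0.411%. The members held 0.449% ± 0.0600 in 9-week swim-tunnel libraries and 0.255% ± 0.0163 in 9-week unexercised ones (SD, n = 5 each). In bulk muscle, more RNA per cell and more cells of a type that expresses a gene cannot be told apart. In a fit of all 20 libraries with edgeR's quasi-likelihood test and Benjamini-Hochberg adjustment over 16653 tested genes, 10 of the 150 members passed an adjusted p of 0.05 as higher in 9-week swim-tunnel fish, where 0.108% of all tested genes did. The rule used this contrast, and nothing is read from that count. On TMM-scaled CPM 322 genes met the rule, and 78.0% of the 150 members were among them.

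The rule was also applied without each 9-week library in turn, and the library left out was then set against the other 9-week group for the genes chosen. Without 9-week swim-tunnel library 1, 254 genes were chosen, and in 93.7% of them that library lay above every unexercised value, against 24.7% of all tested genes with at least 5 CPM. For the 5 swim-tunnel libraries this share ran from 65.6% (library 4) to 93.7% (library 1), where all tested genes of at least 5 CPM gave 14.9% to 29.0%. For the unexercised libraries the share lying below every swim-tunnel value ran from 52.9% (library 4) to 93.0% (library 3), where the same genes gave 10.3% to 27.7%. Every 9-week library left out thus fell on its own side more often than it did over all such genes. The choice of genes by the other group's values favours this by itself, so the shares are a description. The genes on the library's own side numbered 236 to 241 whichever library was left out, so the share mainly followed the number chosen. The number of genes chosen was 452 without unexercised library 4 and 363 without swim-tunnel library 4, against 240 with all libraries.

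Whether the 27-week swim-tunnel fish kept the level of 9-week swim-tunnel fish was first seen library by library. Each library was placed, for each member, between the unexercised 9-week mean (position 0) and the swim-tunnel 9-week mean (position 1) on the scale of log2(CPM + 1), and the median over the 150 members was taken. At 27 weeks the medians were 1.16, 1.29, 1.56, 1.30 and 1.62 for libraries 1 to 5. For libraries 6 to 10 they were 0.464, 0.0524, 0.0408, 0.103 and 0.237. Libraries 1 to 5 were thus past the 9-week swim-tunnel mean, library 6 was about midway, and libraries 7 to 10 were near the unexercised mean. The 9-week swim-tunnel libraries themselves lay between 0.848 and 1.24 and the unexercised ones between -0.211 and 0.165. The rule favours such narrow ranges, as these libraries chose the genes and set positions 0 and 1. Each 9-week library was therefore also left out of the choice and of the means, and placed over all genes then chosen. Swim-tunnel libraries then lay between 0.624 and 1.28, and unexercised ones between -0.195 and 0.528. The values of 27-week libraries 6 to 10 fell within the latter range. They were medians over the 150 members, though, and not over the genes chosen at each omission, so the 2 compare only roughly. The upper end of that range was unexercised library 4 alone, and the next highest, library 1, lay at 0.308.

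The scaling of the libraries moved these positions. On TMM-scaled totals, 27-week libraries 1 to 5 had positions of 0.903, 0.884, 1.04, 0.990 and 1.18, about the level of 9-week swim-tunnel fish (0.675 to 1.20). Libraries 6 to 10 had positions of 0.483, 0.401, 0.535, 0.408 and 0.524, about midway. These were above every unexercised library (-0.188 to 0.246), in a range that the rule narrows. With each 9-week library left out as before, unexercised libraries lay between 0.00656 and 0.425, and the lowest swim-tunnel library lay at 0.375. Against these ranges, 27-week libraries 7 and 9 fell among the unexercised libraries. Libraries 6, 8 and 10 lay above all of the unexercised libraries. Libraries 6 to 10 were all above the lowest swim-tunnel library, which was library 4, but below the next lowest, at 0.770. Their overlap with swim-tunnel fish thus rested on that library alone. As on own totals, medians over different sets of genes are set side by side here, so the comparison is rough. Libraries 1 to 5 stood above libraries 6 to 10 on either scaling, while the closeness of libraries 7 to 10 to the unexercised mean was seen on own totals only. On own totals the median of all tested genes with at least 5 CPM also lay 0.25 to 0.39 log2 units below the 9-week midpoint in libraries 7 to 10, where the members' medians were -0.30 to -0.15. In libraries 1 to 5 the median of these tested genes lay between -0.03 and 0.12 from the midpoint, and the members' medians were 0.41 to 0.65. The part of library composition in these positions was not tested.

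**Figure D1:**
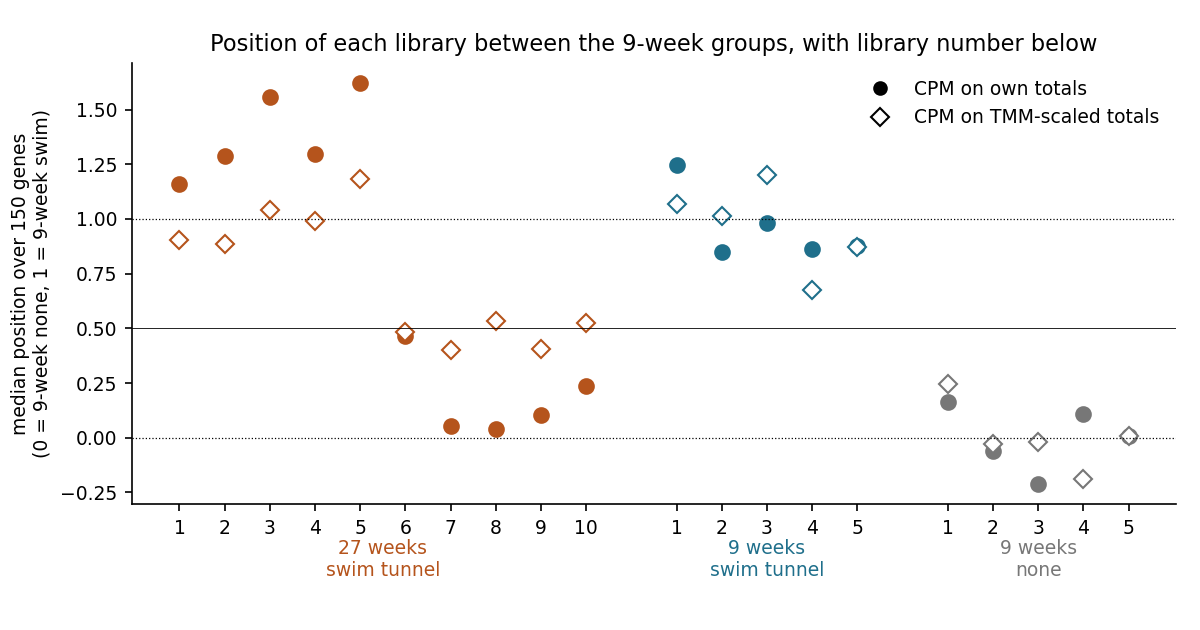
Median position over the 150 members for each library (vertical axis, no unit; 0 is the mean of 9-week unexercised fish and 1 the mean of 9-week swim-tunnel fish on the log2 scale), with filled circles for CPM on own totals and open diamonds for TMM-scaled totals. The 27-week libraries 1 to 5 sit at 0.884 or above on either scaling and libraries 6 to 10 at 0.535 or below.

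A test of the 27-week level that leans less on the rule compares it with the midpoint of the 2 groups of 9 weeks. With 5 libraries in each, the mean of both is, on the log scale, nearly independent of their difference. The midpoint is still made of the libraries that chose the members. The rule also asked for 9-week values without overlap and a swim-tunnel mean of at least 5 CPM. This independence does not cover those conditions. The 27-week values entered the rule only where they dropped 8 genes above and 3 below the 9-week range, and with those genes kept in the choice of 150 the counts below were 61 and 31. All 150 members passed the filter on low counts. Against the midpoint, 59 members (39.3%) rose in 27-week swim-tunnel fish and 30 (20.0%) fell, while 61 did not pass (edgeR quasi-likelihood test, adjusted p under 0.05). Of all tested genes 24.1% rose and 21.4% fell. The share of members that rose was thus above that of all genes, and the share that fell was close to that of all genes taken without regard to abundance. The median log2 difference was 0.26 over the members, with quartiles of -0.29 and 0.63, and 0.05 over all tested genes.

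The size of the result depended on 27-week libraries 1 to 5. Without them, 26 members (17.3%) rose and 29 (19.3%) fell against the midpoint, where 13.5% and 15.8% of tested genes did. The members' median was then -0.017, against -0.005 over tested genes. Without libraries 6 to 10, 72 members (48.0%) rose and 42 (28.0%) fell, where 27.7% and 30.4% of tested genes did. The members' median was then 0.31, against 0.005 over tested genes. On TMM-scaled totals the members' medians from the midpoint were -0.058 to 0.021 in libraries 6 to 10. Those of tested genes with at least 5 CPM were -0.129 to -0.069, and in each of these libraries the members' median was the higher. As the shares over tested genes include every degree of abundance, the members were also set beside tested genes of the same 9-week CPM range. This comparison used all 20 libraries and was added after the data had been seen. Among the 50 members of lowest abundance (3.63 to 7.43 CPM) the median difference from the midpoint was 0.37, against 0.07 over tested genes of that range. It was 0.22 against -0.05 among the next 50 (7.43 to 15.5 CPM) and 0.09 against -0.26 among the 50 of highest abundance (15.5 to 484 CPM). From low to high abundance, 24, 20 and 15 of the 50 members rose (48.0%, 40.0% and 30.0%), where 27.4%, 21.8% and 13.3% of tested genes of the same range did. In the same order 7, 9 and 14 fell (14.0%, 18.0% and 28.0%), where 20.3%, 29.5% and 45.1% of tested genes did, so within each range the share of members that fell was below that of the tested genes.

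**Figure D2:**
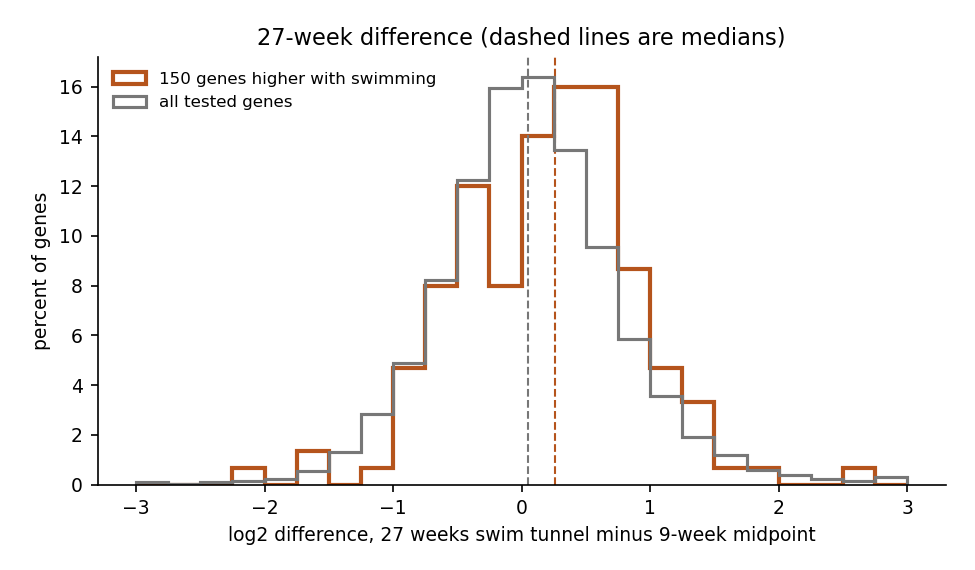
Distribution of the log2 difference between 27-week swim-tunnel fish and the 9-week midpoint (horizontal axis) as percent of genes (vertical axis), for the 150 members and for all tested genes, with values past 3 placed in the last bin. The members' median of 0.26 lies to the right of the median of all tested genes of 0.05, and both distributions extend to either side of 0.

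The members did not move as a body at 27 weeks. On own totals, 18 members lay above the midpoint in all 10 of the 27-week libraries and 19 in 0 of them, where 8.17% and 15.5% of all tested genes did. A further 26 members (17.3%) lay above it in exactly 5 libraries, where 12.9% of all tested genes did. In 25 of the 26 members (16.7% of the 150) the 5 were libraries 1 to 5, a pattern that 7.57% of all tested genes had. On TMM-scaled totals 26 members (17.3%) lay above the midpoint in all 10 libraries, where 11.9% of all tested genes did. On that scaling 19 members (12.7%) lay above it in 0 libraries and 16 (10.7%) in exactly 5, near the 15.8% and 8.56% of all tested genes. Of these 16, 13 (8.67% of the 150) had libraries 1 to 5 above, as did 1.75% of all tested genes. All 27-week values lay above all unexercised 9-week values for 21 members (34 on TMM-scaled totals), where 3.31% of all tested genes did so (5.32% on TMM-scaled totals). All 27-week values lay below all swim-tunnel 9-week values for another 21 members (24 on TMM-scaled totals), where 5.53% of all tested genes did so (6.23%). Each of these comparisons shares a group with the rule.

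More members lay far above the midpoint in libraries 1 to 5 than in libraries 6 to 10, while for members far below it the order depended on the scaling. On TMM-scaled totals, 21 to 38 members per library lay at least 2-fold above the midpoint and 10 to 17 at least 2-fold below it in 27-week libraries 1 to 5. In libraries 6 to 10 it was 4 to 18 above and 3 to 8 below. On own totals 34 to 54 lay that far above in libraries 1 to 5 and 2 to 15 in libraries 6 to 10. Those far below numbered 8 to 14 and 3 to 13, so these ranges overlapped. Over all tested genes on own totals, 8.14% to 13.5% lay that far above and 5.30% to 6.73% below in libraries 1 to 5. In libraries 6 to 10 it was 1.53% to 2.73% above and 1.17% to 4.86% below, so these shares did not overlap. Among all tested genes the shares on TMM-scaled totals were 5.78% to 8.26% above and 8.19% to 9.81% below in libraries 1 to 5, and 1.86% to 3.90% above and 1.15% to 2.91% below in libraries 6 to 10, so the greater distance of libraries 1 to 5 was not confined to the members. Within the 27-week group, the first component of the members' standardized log2 values held 51.6% of their variance, against 41.1% for all tested genes and 49.3% for tested genes with at least 5 CPM. It placed libraries 1 to 5 between 7.80 and 8.78 and libraries 6 to 10 between -10.7 and -5.93, with 87 members of positive and 63 of negative loading.

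**Figure D3:**
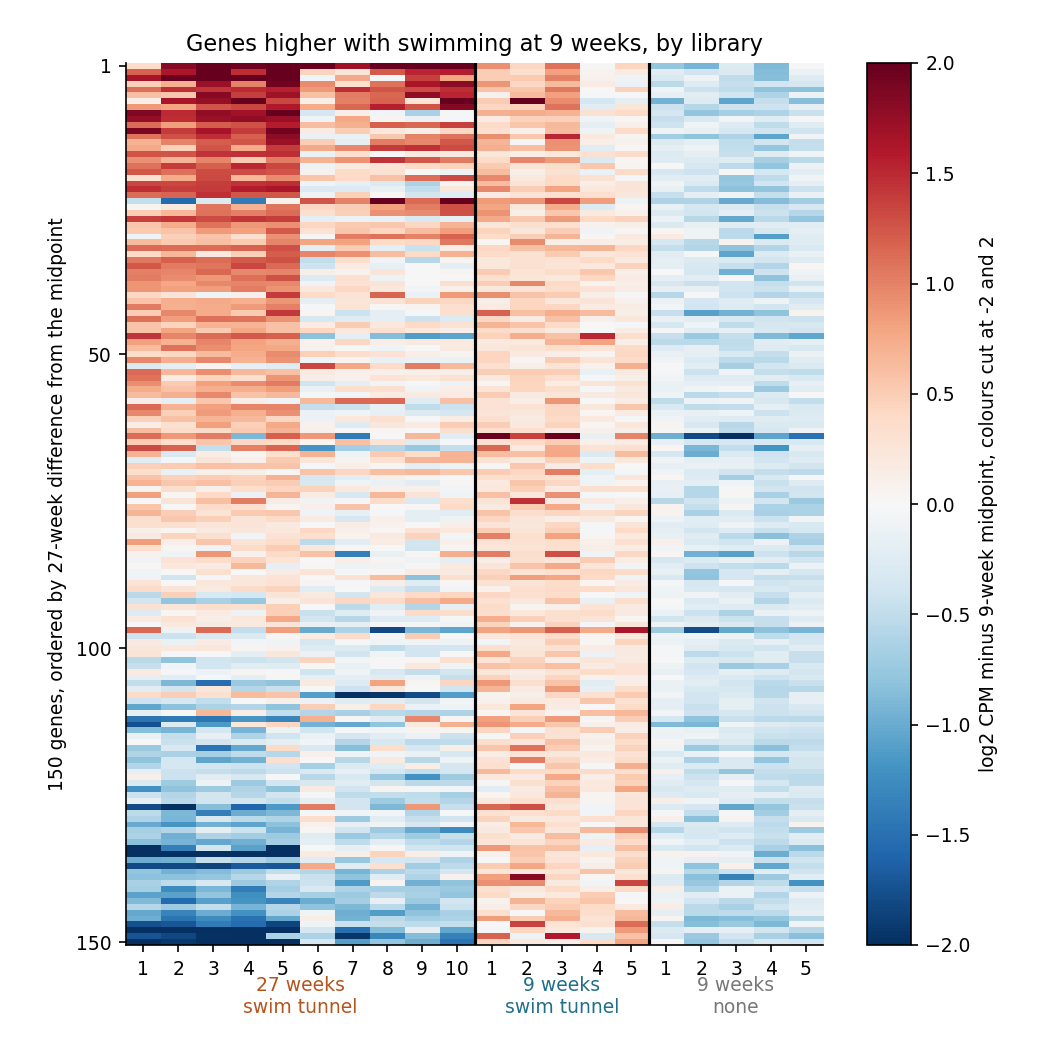
Log2 CPM on TMM-scaled totals minus the 9-week midpoint (colour, red above and blue below, cut at -2 and 2) for the 150 members (rows, ordered by their 27-week difference from the midpoint) in each of the 20 libraries (columns). On this scaling, strong colours in both directions are most frequent in 27-week libraries 1 to 5. The 9-week swim-tunnel columns are mostly red and the unexercised columns mostly blue, as the rule requires on own totals.

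The 27-week fish were also set against each 9-week group alone. Compared with 9-week swim-tunnel fish, 16 members were higher and 45 lower at 27 weeks, where 14.8% of all tested genes were higher and 16.8% lower (edgeR quasi-likelihood test, adjusted p under 0.05). Compared with unexercised 9-week fish, 91 members were higher and 11 lower, where 21.2% of all tested genes were higher and 18.9% lower. The median log2 difference of the members was -0.15 from swim-tunnel fish and 0.63 from unexercised fish, with all tested genes at 0.03 and 0.06. These comparisons share their 9-week libraries with the rule, which chose genes with high swim-tunnel and low unexercised values, so a lower call in the first and a higher call in the second are favoured by the choice alone and the counts are given side by side without being read as evidence that the level was kept or lost.

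Some of these counts turned on single libraries. The 16 members higher than in 9-week swim-tunnel fish were 8 without swim-tunnel library 4 and 7 without swim-tunnel library 5, and 44 without 27-week libraries 6 to 10. The 11 members lower than in unexercised fish were 7 without 27-week library 2 or 4. They were 1, 6, 7 and 7 without unexercised libraries 1, 2, 3 and 5 in turn. Leaving out 27-week libraries 1 to 5 gave 3, and leaving out libraries 6 to 10 gave 26. The 45 lower than in swim-tunnel fish and the 91 higher than in unexercised fish moved by less than 1.5 times when any single library was left out. For these 2 comparisons the shares of all tested genes were not taken at each omission. Against the midpoint, 13.5% of tested genes rose and 15.8% fell without 27-week libraries 1 to 5, and 27.7% and 30.4% without libraries 6 to 10. Changes in these member counts are thus not told apart from changes over all genes.

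The member that stood highest at 27 weeks relative to the midpoint was Nfu_g_1_001379 (rank 17, 2305 bases by the length that the deposited RPKM imply). Its 27-week values had a lowest of 24.5, a median of 99.6 and a highest of 181 CPM. It had 34.5, 20.6, 32.4, 18.4 and 22.7 CPM in 9-week swim-tunnel libraries 1 to 5, and 8.95, 8.22, 12.6, 10.04 and 16.6 CPM in unexercised ones. All 27-week libraries lay above all unexercised ones, and 27-week library 1, at 24.5 CPM, was the only one of the 10 within the range of 9-week swim-tunnel fish. The log2 difference from the midpoint was 2.58 (SE 0.30, edgeR adjusted p = 2.44e-06). Leaving out 27-week libraries 1 to 5 gave 2.78, and leaving out libraries 6 to 10 gave 2.28, so this gene stood high in both sets of libraries.

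The next highest was Nfu_g_1_016831 (rank 40, 3593 bases). At 27 weeks it ranged from 4.54 to 39.2 CPM with a median of 13.1 CPM. In 9-week swim-tunnel libraries 1 to 5 it had 7.12, 5.29, 7.60, 5.11 and 5.05 CPM, and in unexercised libraries 3.52, 3.09, 3.16, 2.31 and 4.04 CPM. The 27-week libraries 3 and 5 were the highest, at 35.02 and 39.2 CPM. Library 6, at 6.30 CPM, was within the range of 9-week swim-tunnel fish, and library 7, at 4.54 CPM, lay between that range and the unexercised one. The log2 difference from the midpoint was 1.802 (SE 0.27, edgeR adjusted p = 3.19e-05), and 1.24 without 27-week libraries 1 to 5.

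The member that stood lowest at 27 weeks relative to the midpoint was Nfu_g_1_015824 (rank 35, 780 bases). It ranged from 0.124 to 3.28 CPM at 27 weeks with a median of 0.720 CPM. In 9-week swim-tunnel libraries 1 to 5 it had 6.96, 4.97, 4.55, 6.83 and 8.47 CPM, and in unexercised libraries 4.44, 2.20, 2.71, 4.01 and 3.26 CPM. Every 27-week library lay below every 9-week swim-tunnel library, and 27-week library 6 alone overlapped unexercised fish. The log2 difference from the midpoint was -2.04 (SE 0.45, edgeR adjusted p = 0.0012). Leaving out 27-week libraries 1 to 5 gave -1.20, and leaving out libraries 6 to 10 gave -4.10. In 27-week libraries 1 to 5 it stood at 0.124 to 0.564 CPM, and in libraries 6 to 10 at 0.877 to 3.28 CPM.

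Nfu_g_1_015919 (rank 11, 3829 bases) was the next lowest. Its 27-week values ran from 1.57 to 7.48 CPM with a median of 2.80 CPM. It had 26.8, 8.81, 30.2, 8.85 and 15.99 CPM in 9-week swim-tunnel libraries 1 to 5, and 7.80, 5.76, 7.16, 7.28 and 5.47 CPM in unexercised ones. All 27-week libraries lay below all 9-week swim-tunnel libraries, and libraries 5 and 6, at 7.48 and 6.26 CPM, overlapped unexercised fish while the other 8 lay below them. The log2 difference from the midpoint was -1.67 (SE 0.30, edgeR adjusted p = 0.000174), and against unexercised fish it was -0.93 (SE 0.35, edgeR adjusted p = 0.039). In group means, both of the lowest members were thus below unexercised fish at 27 weeks, and both of the highest were above 9-week swim-tunnel fish.

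**Figure D4:**
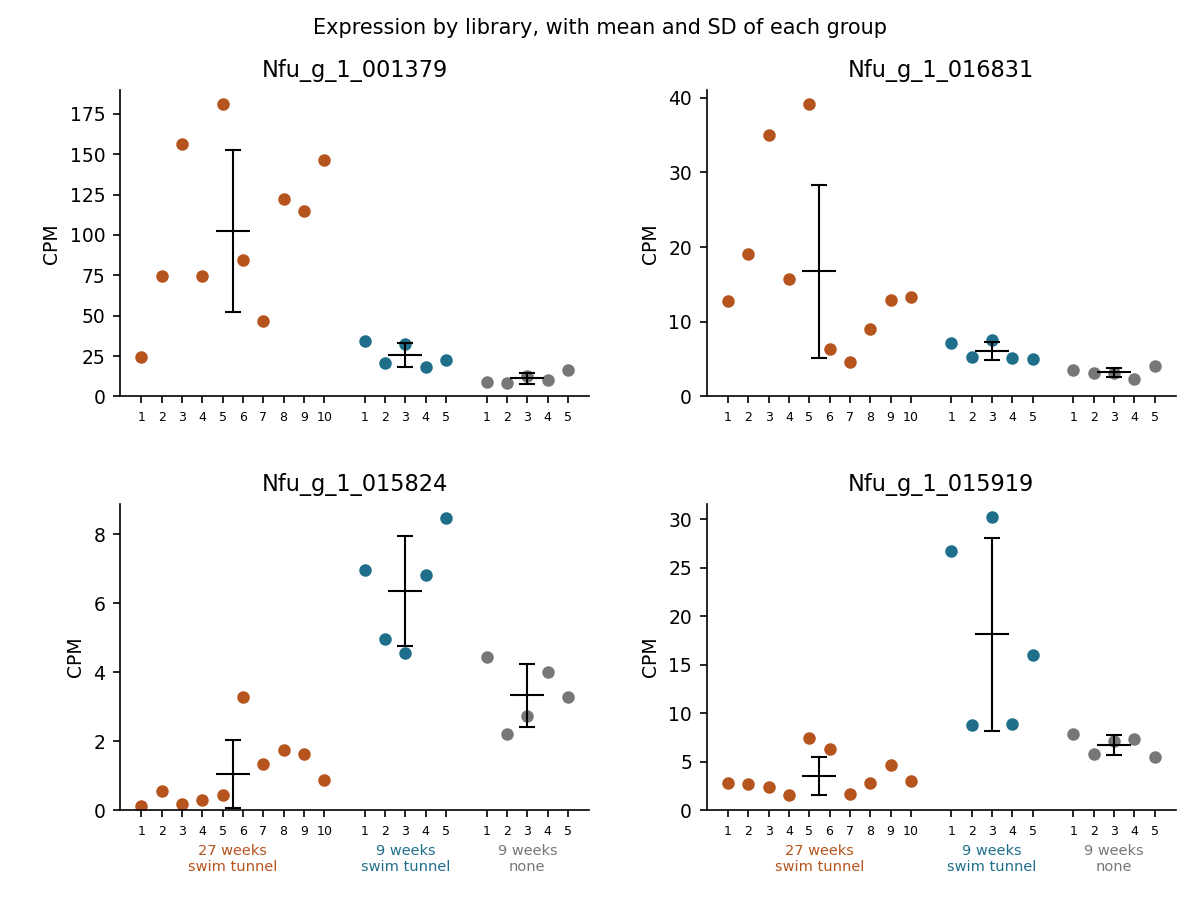
CPM on own totals (vertical axes, each from 0) in the 20 libraries (horizontal axes, numbered within each group) for the 2 members highest and the 2 lowest at 27 weeks relative to the 9-week midpoint, with the mean and SD of each group in black. The upper genes average 103 and 16.8 CPM at 27 weeks, and the lower ones 1.04 and 3.54 CPM.

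The members with the largest 9-week ratios took different courses. The rank 1 gene (1869 bases) ran from 6.12 to 58.5 CPM at 27 weeks with a median of 34.2 CPM. It had 138, 51.0, 140.1, 20.6 and 41.9 CPM in 9-week swim-tunnel libraries 1 to 5, and 9.83, 5.26, 3.34, 11.2 and 6.87 CPM in unexercised ones. At 27 weeks 9 of the 10 libraries lay above every unexercised library. Its difference from the midpoint did not pass (0.37, SE 0.37, edgeR adjusted p = 0.433).

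For the rank 2 gene (1199 bases) the 27-week libraries fell apart by number. Libraries 1 to 5 had 83.4, 37.5, 91.9, 26.0 and 70.5 CPM, and libraries 6 to 10 had 15.7, 17.5, 6.83, 15.1 and 13.5 CPM. It had 62.9, 56.6, 68.7, 61.2 and 104.3 CPM in 9-week swim-tunnel libraries, and 19.1, 8.76, 14.6, 21.2 and 16.97 CPM in unexercised ones. The 27-week libraries 1 to 5 were thus all above the highest unexercised value, and libraries 6 to 10 all below it. Over the 10 libraries together its difference from the midpoint was 0.01 (SE 0.34, edgeR adjusted p = 0.982).

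The rank 3 gene (1053 bases) stood above all unexercised values in every 27-week library. Its 27-week values ran from 10.2 to 74.9 CPM with a median of 23.9 CPM. In 9-week swim-tunnel libraries it had 14.9, 60.6, 17.2, 7.86 and 8.14 CPM, and in unexercised ones 4.30, 7.67, 3.72, 7.57 and 4.84 CPM. It rose against the midpoint by 1.30 on the log2 scale (SE 0.40, edgeR adjusted p = 0.0113).

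The rank 4 and rank 5 genes (4597 and 4537 bases) were low at 27 weeks. The rank 4 gene ran from 1.27 to 3.48 CPM at 27 weeks with a median of 2.06 CPM, against 7.25, 13.2, 4.39, 3.84 and 4.44 CPM in 9-week swim-tunnel libraries and 2.54, 1.45, 0.663, 1.92 and 2.83 CPM in unexercised ones. The rank 5 gene ran from 1.06 to 3.77 CPM at 27 weeks with a median of 2.53 CPM, against 8.93, 7.76, 4.13, 4.12 and 11.4 CPM in 9-week swim-tunnel libraries and 3.02, 1.92, 2.11, 2.89 and 1.14 CPM in unexercised ones. In both genes every 27-week library lay below every 9-week swim-tunnel library and the 27-week range overlapped that of unexercised fish. The rank 4 gene fell against the midpoint (-0.73, SE 0.27, edgeR adjusted p = 0.0336), as did the rank 5 gene (-0.77, SE 0.23, edgeR adjusted p = 0.0093).

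The rule did not use gene length directly, but it set a minimum in CPM, which is not scaled by length. The members had a greater median length than tested genes as a whole. It was 3852 bases, with quartiles of 2372 and 5279 bases, against 2852 bases over all tested genes with a length and 3372 bases over tested genes with at least 5 CPM. The 59 members that rose against the midpoint had a median length of 4349 bases, the 30 that fell 3596 bases and the 61 that did not pass 3355 bases. The 9-week abundance of the members that fell was somewhat greater, with a median of 12.8 CPM, against 8.81 CPM for those that rose. The 9-week difference did not set these sets apart, as its median was 0.69 on the log2 scale in members that rose, 0.70 in those that fell and 0.72 in the rest.

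The spread between libraries of 1 group was widest at 27 weeks, where the group pools libraries 1 to 5 with libraries 6 to 10. On TMM-scaled totals the median coefficient of variation of the members was 29.6% between 27-week libraries, 17.8% between 9-week swim-tunnel libraries and 15.3% between unexercised libraries. The rule asked for 9-week values without overlap, which favours a small spread of the members within the 9-week groups. Over tested genes with at least 5 CPM the median was 24.2%, 16.8% and 14.3% in these groups. Those genes were more abundant at 9 weeks, with a median of 15.2 CPM against 9.27 CPM for the members. Markers of other cell types were not looked up, as no identifier has a name.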

How the data were processed

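Per the labels' protocols, TruSeq RNA reagents were used to make the libraries from muscle RNA. Tools listed in the submitters' processing notes are featureCounts 1.4.6-p4, STAR 2.4.1d and bcl2fastq 1.8.4. Settings, genome build and strandedness were not stated in these sources, so reads of overlapping genes or of close copies may be shared. The authors deposited raw counts per gene, which were the basis of every test, and RPKM values. The RPKM were not scaled by each library's own total: the length of a gene, computed from its count and RPKM, differed among libraries by a median of 0.858 on the log2 scale with own totals and 0.000778 with totals taken down the rows in turn. They gave gene lengths only. No 2 libraries of 1 group were duplicates (chi-square per degree of freedom at least 29.6; pairs across groups were not compared), and 0 columns were unused. Nothing says that libraries came from separate fish, so p-values measure the spread between these samples.

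The tests used edgeR 4.0.16 in R 4.3.3 (filterByExpr with a minimum count of 10, TMM, robust quasi-likelihood fit of the 3 groups, contrasts between them, Benjamini-Hochberg adjustment over 16653 genes, threshold 0.05), with a common dispersion of 0.118. The midpoint contrast was 27-week swim-tunnel minus the mean of both 9-week coefficients and was tested on simulated data. The simulated data held no split among the 27-week libraries and no choice of members, so that test does not cover these. The fit took all 27-week libraries as replicates of the same group, although libraries 1 to 5 stood apart from libraries 6 to 10. Each gene had the same estimate of spread in all 3 groups, so this split also entered the contrast between the 9-week groups. The p-values and standard errors make no allowance for the split. Standard errors (SE) were the size of the log2 difference over the root of its F statistic. DESeq2 1.42.0, limma 3.58.1 (voom with sample weights), other scalings, filters and member rules and the omission of libraries were alternatives. Positions used log2(CPM + 1). Members and lists were chosen with earlier results of these data known. Named genes were the 2 members with the greatest and the 2 with the most negative called difference from the midpoint, and the 5 with the largest 9-week ratio, given by rank. With no gene names, only the first 4 have identifiers.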

Additional observations from a re-analysis of the deposited data

Results flagged for a closer look

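Within each of 18 groups of values (6 measures in 3 groups of libraries), the gap of the highest and lowest library to its neighbour was set against the whole range (Dixon's test). It marked 1 library, and chance marks about 1 in 20 groups, or 0.9 here. Nfu_g_1_015824 had 3.28 CPM in 27-week library 6, with the other 9 libraries of the group at 1.74 CPM or less.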

How the results depend on the processing

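No paired analysis was possible because the labels give no replicate numbers that link fish across groups. Of the counts and medians of members, the following moved. Without 27-week libraries 1 to 5, 26 members rose against the midpoint, the members' median difference was -0.017, 3 were lower than in unexercised fish and the median position of the 27-week libraries was 0.103; without libraries 6 to 10, 44 were higher than in 9-week swim-tunnel fish, 26 were lower than in unexercised fish, and dropping genes by libraries 1 to 5 alone kept 53.4% of the separated genes past the CPM minimum, against 95.6% with all 10. The median position, 0.811 over 10 libraries, was 0.464 without any 1 of libraries 1 to 5 and 1.16 without any 1 of libraries 6 to 10, and between these for the 9-week libraries. With all 240 genes that met the rule, 89 rose against the midpoint and 138 were higher than in unexercised fish, where 24.1% and 21.2% of all tested genes did so. With a minimum of 20 CPM, which left 81 genes, 21 rose and 18 fell against the midpoint with a median of 0.043, 8 were higher and 26 lower than in 9-week swim-tunnel fish, and 37 were higher and 7 lower than in unexercised fish. Shares over tested genes were not taken at that minimum. Tested genes of 15.5 to 484 CPM had a median of -0.26 from the midpoint, and 13.3% of them rose and 45.1% fell. The number lower than in unexercised fish was 5 with no filter on low counts and 7 with upper-quartile scaling. Leaving out single libraries gave 55 to 64 members higher and 28 to 32 lower than the midpoint. In the same fits 21.8% to 26.7% of tested genes were higher and 18.9% to 22.6% lower. Single omissions also gave 7 to 19 members higher and 40 to 48 lower than in 9-week swim-tunnel fish. They gave 76 to 92 members higher and 1 to 12 lower than in unexercised fish, and 254 to 452 genes under the rule. The causes were not tested, beyond the smaller or larger number of genes or libraries that some alternatives enter. For the comparisons with 1 of the 9-week groups, the shares of all tested genes under each alternative fit were not taken. The 4 genes named by identifier kept their direction and passed under every alternative fit. Depth limits the low values most: the lowest member value cited, 0.124 CPM, rests on few counts.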

Other observations

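The same rule turned round gave 150 genes lower in 9-week swim-tunnel than in unexercised fish, of 199 that met it. Placed in the same way between the 9-week groups, with 1 at the swim-tunnel level, they had positions of 0.864, 0.646, 0.679, 0.445 and 0.713 in 27-week libraries 1 to 5 and of 0.383, 0.641, 0.839, 0.604 and 0.795 in libraries 6 to 10 on own totals. On TMM-scaled totals these were 1.07, 0.998, 1.05, 0.606 and 1.04 in libraries 1 to 5 and 0.355, 0.293, 0.379, 0.363 and 0.514 in libraries 6 to 10. On TMM-scaled totals, then, libraries 1 to 5 lay nearer the 9-week swim-tunnel level than libraries 6 to 10 for these genes too, while on own totals the 2 sets overlapped. Against the midpoint, 31 of these genes rose and 42 fell (edgeR quasi-likelihood test, adjusted p under 0.05), which is 20.7% and 28.0%, beside 24.1% and 21.4% of all tested genes. Their median log2 difference was -0.07, beside 0.05 over all tested genes.

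The 90 genes that met the rule for higher values but were left out by the limit had a median log2 difference of 0.16 between 27-week swim-tunnel fish and the 9-week midpoint, beside 0.26 for the 150 members. Of the 90, 30 (33.3%) rose and 11 (12.2%) fell against the midpoint (edgeR quasi-likelihood test, adjusted p under 0.05). For the members these shares were 39.3% and 20.0%, and for all tested genes 24.1% and 21.4%. The limit left the 90 with smaller 9-week ratios than the members. Of the 90, 0 differed from the midpoint by at least 2-fold, where 19 of the 150 members (12.7%) and 13.5% of all tested genes did.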
